A study of Mus musculus with 18 samples.

Results

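Cardiomyocytes contract when calcium enters through the surface membrane, opens ryanodine receptors and leaves the sarcoplasmic reticulum (SR), and relax when it is pumped back or extruded. The 36 genes described here encode the proteins of that cycle: the release channel with its partners inside the SR and at its junctions, the SR pump with its regulators, the channels of calcium entry, the exporters at the surface, the calmodulin kinase II isoforms, the mitochondrial uniporter and the inositol trisphosphate receptors. They were taken from a list of calcium genes by the rule that a gene had at least 10 counts in 3 or more of 18 libraries, which all 36 listed genes met, out of 15914 genes of the series that met it and 49315 in the deposited tables. RNA of the mid wall of the left ventricle had been sequenced from male mice of the 129SVE background, wild type (WT) or labelled as knockouts (KO) of the muscle LIM protein MLP, at 3, 6 and 10 weeks of age, with 3 libraries in each of 6 groups. MLP, encoded by Csrp3, is a protein of the cardiomyocyte Z-disc and nucleus, and mice without it develop dilated cardiomyopathy, the progression of which the study followed. The labels name no cell type to which the deletion is restricted and no further allele, and they number the libraries of a group without stating that each is 1 animal, so that the p-values below measure the spread between these libraries.

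Library totals ran from 14980968 to 23001047 counts. The unit of every level is CPM, read counts per library scaled by the trimmed mean of M-values (TMM). Csrp3 itself was not lower in the libraries labelled KO. It held 1005, 951 and 1111 CPM in WT and 1134, 2703 and 1510.1 CPM in KO at 3 weeks, 1486, 1229.7 and 1392 CPM in WT and 2483, 1822 and 1792 CPM in KO at 6 weeks and 1001, 1124 and 1018 CPM in WT and 2777, 3416 and 1501 CPM in KO at 10 weeks. The 3 KO values lay above the 3 WT values at each age. In edgeR's test Csrp3 was called higher in KO at 10 weeks (log2 fold change 1.29, adjusted p = 0.0041). It was not called at 3 weeks (0.80, 0.0812) or 6 weeks (0.57, 0.185). The gene-wide count does not show which exons carried the reads, so WT and KO are used throughout as the names on the labels. Summed markers of ventricular cardiomyocytes reached 72790.4 to 142577.9 CPM. At 3 weeks they summed to 105688.7 to 109415.9 CPM in KO, wholly above the 72790.4 to 89946.3 CPM in WT. Myh6, Tnnt2, Actc1 and Mybpc3 were called higher at that age, and no marker of the list was called lower. The later ages are given beside Atp2a2. Atrial markers without Nppa summed to between 24.9 and 85.2 CPM in 15 libraries, and to 293, 961 and 2777 CPM in KO replicate 3 at 3 weeks, KO replicate 3 at 6 weeks and KO replicate 1 at 10 weeks. Those 3 libraries, all with the atrial light chain gene Myl4 above 50 CPM, stood apart, and calls of members that were lost or gained without them are given beside the results. Fibroblast markers summed to more in KO than in WT at each age, with 1960 to 2507 against 1726 to 1914 CPM at 3 weeks, 1728 to 2393 against 1029 to 1159 CPM at 6 weeks and 1189.5 to 1319.9 against 901 to 1025 CPM at 10 weeks. The list was not uniform: Col1a1 and Col1a2 were called higher at each age, while Dpt was called lower at each age (log2 fold changes of -0.79, -0.91 and -0.73) and Tcf21 lower at 3 weeks (-0.55). Endothelial markers summed to less in KO at 6 weeks (794 to 978 against 1227 to 1274 CPM) and 10 weeks (962 to 1103 against 1199.6 to 1522 CPM). Markers of mural cells, without Des, summed to less in KO at 3 weeks (607 to 790.3 against 829 to 947 CPM) and 10 weeks (542 to 648 against 728 to 865 CPM) and overlapped at 6 weeks. Des, left out because cardiomyocytes express it, was called higher at each age (1.08, 1.26 and 1.41), and with it the sum was higher in KO. This list was mixed too. Kcnj8 and Abcc9 were called lower at each age and Rgs5 at 10 weeks. Cnn1 was called higher at each age (5.04, 5.79 and 5.23) and Pdgfrb at 10 weeks (0.36). Macrophage markers summed to less in KO at 6 weeks (162 to 193 against 196 to 232 CPM) and 10 weeks (122 to 147 against 155 to 167 CPM) and overlapped at 3 weeks. Cd163 was the only macrophage marker called at 6 weeks (-1.475), and Adgre1 went the other way there without a call (0.15). At 10 weeks Csf1r (-0.39) and Mrc1 (-0.49) were called lower. Mitochondrially encoded genes took 10.997% to 16.8% of counts in WT and 7.50% to 10.9% in KO. The part of these differences in the results below was not tested, apart from the fits without the 3 Myl4-rich libraries and without the mitochondrially encoded genes.

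The regions before the start sites of 3 members called between genotypes are shown, and no result below rests on these sequences. Casq1 and Casq2 encode the calsequestrins, which bind calcium inside the SR, the first the form of fast skeletal muscle and the second the cardiac form, and Micu2 encodes a gatekeeper of the mitochondrial uniporter. RefSeq promoters (GRCm38.p6) were matched for 24 of the 36 members, and Tmem38b and Atp2a2 were not among these. Each run covers the 250 bases before the RefSeq start, 5′ to 3′ on the strand of the gene. They lie at chr1:172219896-172220145 on the minus strand for Casq1, chr3:102086165-102086414 on the plus strand for Casq2 and chr14:57999263-57999512 on the minus strand for Micu2. Capitals mark matches, on either strand, of the TATA box TATAAA, the GC box GGGCGG, the GATA site AGATAA, the M-CAT site CATTCC and the nuclear receptor motif AGGTCA.
Casq1: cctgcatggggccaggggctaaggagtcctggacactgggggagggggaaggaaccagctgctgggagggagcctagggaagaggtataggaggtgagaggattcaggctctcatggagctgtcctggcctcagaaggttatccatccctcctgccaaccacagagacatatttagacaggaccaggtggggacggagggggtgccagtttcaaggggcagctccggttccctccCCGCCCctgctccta
Casq2: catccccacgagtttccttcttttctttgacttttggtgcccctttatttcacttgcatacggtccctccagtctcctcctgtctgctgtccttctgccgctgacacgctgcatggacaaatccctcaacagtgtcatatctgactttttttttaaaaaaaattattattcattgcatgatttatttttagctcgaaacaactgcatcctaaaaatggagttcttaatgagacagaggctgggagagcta
Micu2: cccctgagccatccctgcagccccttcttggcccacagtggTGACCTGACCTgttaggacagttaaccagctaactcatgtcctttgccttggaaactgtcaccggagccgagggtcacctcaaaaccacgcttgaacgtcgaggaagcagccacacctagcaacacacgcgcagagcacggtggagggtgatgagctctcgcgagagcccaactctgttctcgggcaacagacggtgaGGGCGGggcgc
Casq1 held 1 GC box, 15 bases before the start, and was 61.6% G and C. Casq2 held none of these 5 motifs and was 41.6% G and C. Micu2 held 1 GC box, 11 bases before the start, and a pair of nuclear receptor motifs that share 1 base, 209 and 204 bases before it. Over all 32851 promoters of this length, 32.7% held the GC box, 14.0% the nuclear receptor motif, 12.4% the TATA box, 9.99% the GATA site and 12.6% the M-CAT site. The E-box CANNTG, not capitalised, matched at 2 places in Casq1 and at 2 in Casq2, at none in Micu2, and in 66.2% of all promoters. These matches describe the letters of these windows only.

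Between genotypes, the calcium genes did not move as 1 block. Calsequestrin 1 was called higher in the libraries labelled KO at all 3 ages, and the counter-ion channel gene Tmem38b lower at all 3. A further 13 members were called at 1 age only. Such a call does not show that the difference was confined to that age, which the comparison of effects between ages, given below, tests. A gene was called at an adjusted p under 0.05 in edgeR's quasi-likelihood test, with Benjamini-Hochberg adjustment over the 15778 genes tested. At 3 weeks 6 members were called higher and 2 lower, at 6 weeks 3 higher and 9 lower, and at 10 weeks 8 higher and 3 lower. These are 22.2%, 33.3% and 30.6% of the 36 members, against 15.3%, 23.8% and 29.3% of all genes tested. By direction, 8.65%, 11.0% and 14.6% of all genes were called higher and 6.68%, 12.8% and 14.7% lower at 3, 6 and 10 weeks. The members' share at 10 weeks was thus close to that of all genes. The members were chosen with earlier results of these data known, so no higher share, here or below, can be read as an excess. The median log2 fold change of the members was 0.08, -0.08 and 0.06, against 0.00, 0.00 and -0.03 for all genes. All 3 KO values lay above all 3 WT values for 7 members, and below them for 5, at 3 weeks, where this held for 15.7% and 14.9% of all genes (30.5% together). At 6 weeks the numbers were 8 and 11, against 21.9% and 22.2% of all genes (44.2%), and at 10 weeks 11 and 5, against 19.2% and 21.4% of all genes (40.5%). Of the 36 members, 21 were called at 1 age or more and 15 at none. Of the 31 calls, 18 held in each fit that left out 1 library of the groups compared. The 9 lower calls at 6 weeks became 5 without WT replicate 1 and 4 without KO replicate 2, and the 3 lower calls at 10 weeks became 1 without WT replicate 1, 0 without WT replicate 3 and 0 without KO replicate 2.

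**Figure D1:**
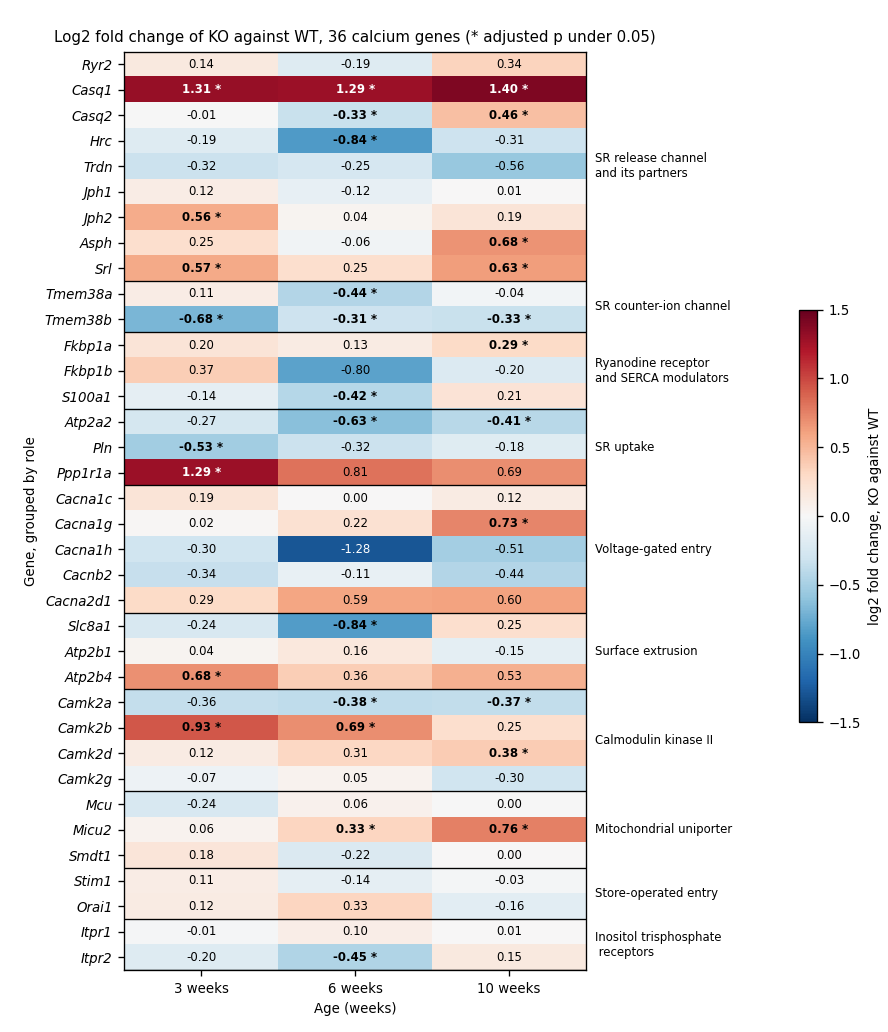
Log2 fold change of the libraries labelled KO against WT for the 36 members (rows, grouped by role) at 3, 6 and 10 weeks (columns), coloured from lower in KO (blue) to higher in KO (red). Stars and bold type mark an adjusted p under 0.05 in edgeR's test. Casq1 was called higher and Tmem38b lower at all 3 ages, and the column for 6 weeks holds 9 of the calls towards lower values.

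The release channel gene Ryr2 was called at no age, while several genes of proteins that sit beside the channel differed between the libraries labelled KO and WT. Ryr2 encodes the cardiac ryanodine receptor and had log2 fold changes of 0.14, -0.19 and 0.34 at 3, 6 and 10 weeks (adjusted p = 0.511, 0.313 and 0.0532). Its group means ran from 1586 to 2218 CPM. At 10 weeks its KO values were 2531, 2198 and 1924 CPM and its WT values 1865, 1839 and 1557 CPM, which did not overlap.

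Casq1 (ENSMUSG00000007122, chromosome 1, 172209894 to 172219868, GRCm38) was the member with the largest increase at each age. Casq1 stood at 166, 144 and 246 CPM in WT and 344, 580.3 and 451 CPM in KO at 3 weeks. Casq1 stood at 71.3, 85.8 and 93.2 CPM in WT and 195, 225 and 191 CPM in KO at 6 weeks. Casq1 stood at 50.1, 65.1 and 60.95 CPM in WT and 167, 159 and 138 CPM in KO at 10 weeks. Every KO value lay above every WT value of its age, although the level fell from 3 to 6 weeks in both genotypes. At 3 weeks Casq1 gave a log2 fold change of 1.31 ± 0.19 (SE), adjusted p = 0.000145. The 6-week value was 1.29 ± 0.19 (SE), adjusted p = 7.81e-05, the 10-week value was 1.40 ± 0.19 (SE), adjusted p = 3.01e-05, and no fit without 1 library lost a call. Markers of skeletal muscle, the tissue for which Casq1 is best known, summed to 2.14 to 6.59 CPM in the 18 libraries, and 6 of those 10 markers stayed under 1 CPM throughout, among them Ryr1, the release channel of skeletal muscle. Their sum was 2.14 to 4.43 CPM in KO and 5.29 to 6.59 CPM in WT at 3 weeks, and the genotypes overlapped at 6 and 10 weeks. The part of skeletal muscle RNA in the Casq1 values was not tested. Gm17224, which overlaps Casq1 on the opposite strand, reached at most 3.65 CPM.

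Casq2 (ENSMUSG00000027861, chromosome 3, 102086415 to 102146514) was lower in KO at 6 weeks and higher at 10 weeks. Casq2 stood at 1053, 1111 and 1073 CPM in WT and 959, 1203 and 1059 CPM in KO at 3 weeks, where the genotypes overlapped (adjusted p = 0.977). Casq2 stood at 1305, 1037 and 1103 CPM in WT and 1044, 822 and 874 CPM in KO at 6 weeks, with KO replicate 1 inside the WT range. Casq2 stood at 814, 771 and 782 CPM in WT and 1061, 1210.3 and 975 CPM in KO at 10 weeks, where KO lay wholly above WT. The 6-week log2 fold change was -0.33 ± 0.12 (SE), adjusted p = 0.0426, and the 10-week value was 0.46 ± 0.12 (SE), adjusted p = 0.00498. The 6-week call was lost without WT replicate 1, WT replicate 3, KO replicate 2 or KO replicate 3 (adjusted p up to 0.242) and without the 3 Myl4-rich libraries (0.154). At 10 weeks it held in all 6 such fits.

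The ratio of the pair shows how far apart they moved. Per kilobase of gene, Casq1 amounted to 22.2%, 18.2% and 32.2% of Casq2 in the 3 WT libraries and 50.3%, 67.6% and 59.7% in the 3 KO libraries at 3 weeks. It was 7.67%, 11.6% and 11.8% in WT and 26.2%, 38.4% and 30.6% in KO at 6 weeks. At 10 weeks it was 8.63%, 11.8% and 10.9% in WT and 22.0%, 18.4% and 19.9% in KO. The genotypes did not overlap at any age, with mean ratios in KO 2.45, 3.06 and 1.92 times those in WT. In both genotypes the cardiac form remained the more abundant transcript.

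Hrc and Asph differed most at different ages. Hrc encodes the histidine-rich calcium-binding protein of the SR lumen. Hrc stood at 1027, 1094 and 1236 CPM in WT and 1142, 768 and 1025 CPM in KO at 3 weeks. Hrc stood at 1529, 1559.5 and 1726 CPM in WT and 809, 952 and 920.3 CPM in KO at 6 weeks, which gave a log2 fold change of -0.84 ± 0.12 (SE), adjusted p = 3.37e-05. Hrc stood at 1410.5, 1472 and 1690.5 CPM in WT and 1238, 1214 and 1226 CPM in KO at 10 weeks, where the genotypes did not overlap but the adjusted p was 0.0617. The 6-week difference was thus the only call for Hrc, and it held in every fit without 1 library.

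Asph encodes several proteins from 1 gene, among them junctin, which anchors calsequestrin to the ryanodine receptor, and an aspartyl hydroxylase, which these gene counts do not separate. Asph stood at 312, 340.1 and 295 CPM in WT and 343, 356 and 428 CPM in KO at 3 weeks. Asph stood at 342, 304 and 316 CPM in WT and 342, 292 and 292 CPM in KO at 6 weeks, with overlap. Asph stood at 239, 249.8 and 249.98 CPM in WT and 421, 435 and 324 CPM in KO at 10 weeks, where every KO library exceeded every WT library and the log2 fold change was 0.68 ± 0.12 (SE), adjusted p = 0.000135. Clvs1, which overlaps Asph on the opposite strand, reached at most 1.26 CPM.

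Srl encodes sarcalumenin, a calcium-binding glycoprotein of the SR. Srl stood at 1004, 1287 and 1191 CPM in WT and 1651, 1896 and 1611 CPM in KO at 3 weeks. Srl stood at 1077, 1125 and 1155 CPM in WT and 1401, 1254 and 1328 CPM in KO at 6 weeks. Srl stood at 1036, 1056 and 1116 CPM in WT and 1585, 1850.3 and 1527 CPM in KO at 10 weeks. KO lay above WT at each age, and the call was made at 3 weeks (0.57 ± 0.11 SE, adjusted p = 0.000939) and 10 weeks (0.63 ± 0.11 SE, adjusted p = 0.000128) but not at 6 weeks (0.25, adjusted p = 0.102).

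Of the junctophilins, which hold the SR against the surface membrane, Jph2 is the cardiac form. Jph2 stood at 682, 872 and 914 CPM in WT and 1369, 1028 and 1234 CPM in KO at 3 weeks, with no overlap and a log2 fold change of 0.56 ± 0.12 (SE), adjusted p = 0.00301. Jph2 stood at 906, 1018 and 1006 CPM in WT and 968, 1007 and 1030.2 CPM in KO at 6 weeks and 1129.7, 1233 and 1337 CPM in WT and 1285, 1474 and 1475 CPM in KO at 10 weeks. The genotypes overlapped at both later ages (adjusted p = 0.871 and 0.243). Jph1 stood at 18.8 to 45.0 CPM and was called at no age, and Jph1 per kilobase amounted to 2.32% to 2.79% of Jph2 in WT and 1.56% to 2.29% in KO at 3 weeks. Trdn, for triadin, was called at no age in the fit of all libraries. At 10 weeks its WT values of 209.6, 197 and 219 CPM lay close together, while KO replicates 1, 2 and 3 held 236, 114 and 73.3 CPM. KO replicate 1 is 1 of the 3 Myl4-rich libraries. The log2 fold change of -0.56 ± 0.37 (SE, adjusted p = 0.285) became -1.13 without those 3 libraries and was then called (adjusted p = 0.000311), as it was without KO replicate 1 alone (adjusted p = 0.0141). Both fits kept only KO replicates 2 and 3 at 10 weeks. At 6 weeks the Myl4-rich library, KO replicate 3, was instead the lowest. KO replicates 1, 2 and 3 then held 225, 201 and 99.8 CPM, against 196 to 230 CPM in WT.

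**Figure D2:**
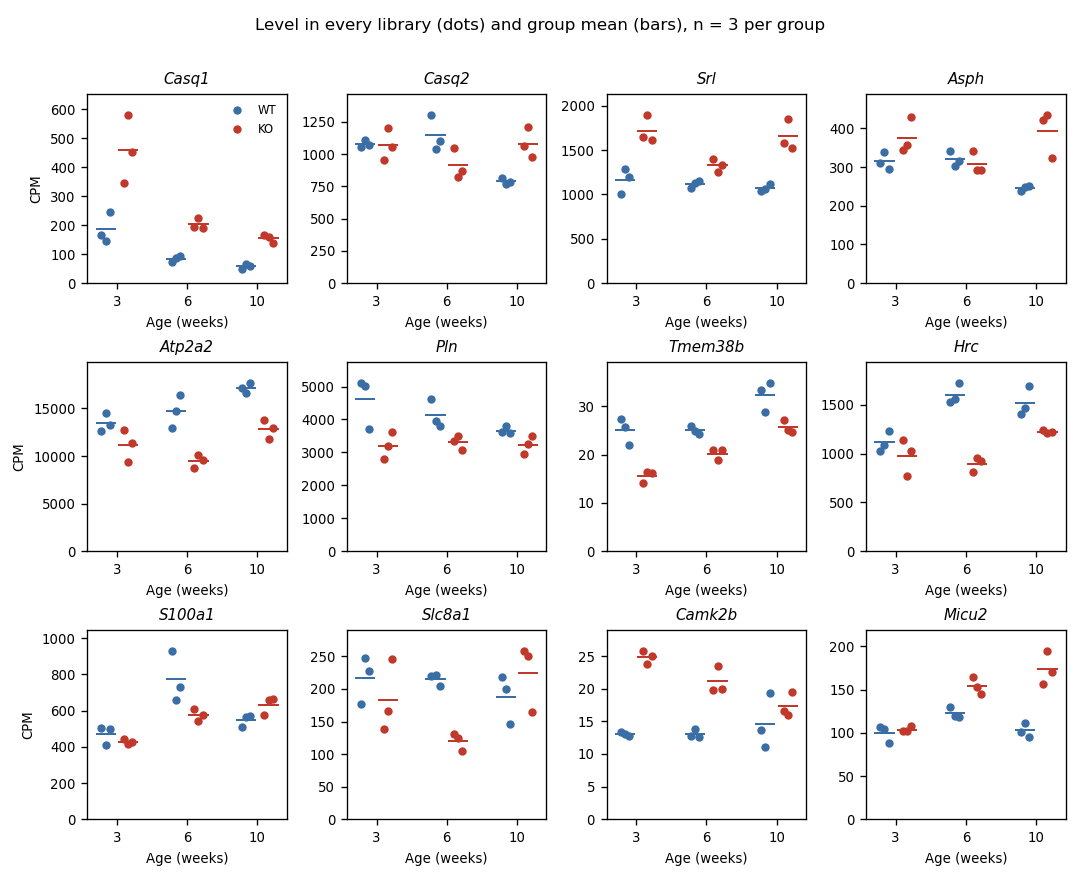
CPM of 12 members (1 panel each) against age in weeks, with a dot for each library, a bar for each group mean of 3 libraries, WT in blue and the libraries labelled KO in red, on linear axes from 0. Casq1 lies higher in red at every age, Tmem38b lower at every age, and the red means of Hrc, Atp2a2 and Slc8a1 are at their lowest at 6 weeks.

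The counter-ion channel genes, whose TRIC proteins carry potassium against the released calcium, were called lower in the libraries labelled KO wherever they were called. Tmem38b (ENSMUSG00000028420, chromosome 4, 53826045 to 53862019) encodes TRIC-B, the form found in most tissues. Tmem38b stood at 27.3, 25.7 and 22.1 CPM in WT and 14.2, 16.4 and 16.3 CPM in KO at 3 weeks. Tmem38b stood at 26.0, 24.9 and 24.2 CPM in WT and 21.03, 18.8 and 20.9 CPM in KO at 6 weeks. Tmem38b stood at 33.3, 28.9 and 34.9 CPM in WT and 27.2, 25.1 and 24.8 CPM in KO at 10 weeks. No KO library reached the lowest WT library of its age. For Tmem38b the 3-week log2 fold change was -0.68 ± 0.11 (SE), adjusted p = 0.000241. Its 6-week value was -0.31 ± 0.11 (SE), adjusted p = 0.0494 and its 10-week value was -0.33 ± 0.11 (SE), adjusted p = 0.0265. The 6-week call was lost in each of the 6 fits without 1 library (0.0879 to 0.183) and the 10-week call in 5 of 6, being kept only without WT replicate 2. Without the 3 Myl4-rich libraries both missed the threshold (0.0878 and 0.0508). Tmem38a, for TRIC-A, the form of striated muscle, held 602, 583 and 628 CPM in WT and 432, 452 and 454 CPM in KO at 6 weeks. Its KO values there lay wholly below WT (-0.44 ± 0.11 SE, adjusted p = 0.00411). At 3 weeks the range was 460.1 to 551 CPM in WT and 484 to 628 CPM in KO, and at 10 weeks 564 to 654 and 535 to 633 CPM, with overlap at both. Tmem38b per kilobase was 2.26% to 3.34% of Tmem38a in WT and 1.27% to 1.903% in KO at 3 weeks, and the ratio overlapped between genotypes at 6 and 10 weeks.

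The SR pump gene was called lower in the libraries labelled KO at 6 and 10 weeks, and its inhibitor phospholamban at 3 weeks. Atp2a2 encodes SERCA2, which returns calcium to the SR, and had the highest level per kilobase of all members (2163 CPM per kilobase over the 6 group means), followed by Pln (1488). Atp2a2 stood at 12655.0, 14538.4 and 13218.7 CPM in WT and 12791.4, 9409.9 and 11416.5 CPM in KO at 3 weeks, where KO replicate 1 reached the WT range. Atp2a2 stood at 12992.5, 14689.5 and 16421.3 CPM in WT and 8765, 10156.0 and 9592 CPM in KO at 6 weeks. Atp2a2 stood at 17150.7, 16604.4 and 17683.8 CPM in WT and 13840.4, 11831.3 and 12971.4 CPM in KO at 10 weeks. At the later ages every KO library was below every WT library. For Atp2a2 the 6-week log2 fold change was -0.63 ± 0.12 (SE), adjusted p = 0.000518, and the 10-week value was -0.41 ± 0.12 (SE), adjusted p = 0.0124. The 3-week value of -0.27 was not called (adjusted p = 0.144). The 10-week call was lost without WT replicate 3 or KO replicate 2 (adjusted p up to 0.0811). In bulk tissue, fewer cells of a type and less RNA per cell cannot be told apart. The 9 ventricular markers did not move 1 way. At 6 weeks Myl2 (-0.52, adjusted p = 0.00288), Myl3 (-0.70, adjusted p = 0.000483) and Tnni3 (-1.04, adjusted p = 1.78e-06) were called lower, and Actc1 (0.59) and Myh7 (1.40) higher. At 10 weeks Tnni3 was called lower (-0.61, adjusted p = 0.000549), and Actc1, Myh7, Mybpc3 and Ttn higher. Their sum was 96566.2 to 110727.3 CPM in KO and 94437.7 to 106604.0 CPM in WT at 6 weeks and 120419.2 to 142577.9 against 89717.7 to 99563.9 CPM at 10 weeks, and the part of the cardiomyocyte share in the Atp2a2 values was not tested.

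Pln encodes phospholamban, which holds SERCA2 back until it is phosphorylated. Pln stood at 5108, 5019 and 3718 CPM in WT and 2804, 3194 and 3617 CPM in KO at 3 weeks, with no overlap and a log2 fold change of -0.53 ± 0.13 (SE), adjusted p = 0.00678. Pln stood at 4634, 3960.5 and 3788 CPM in WT and 3344, 3486 and 3086 CPM in KO at 6 weeks. Pln stood at 3608, 3801 and 3582 CPM in WT and 2940.3, 3256 and 3483 CPM in KO at 10 weeks. The KO values were the lower ones at the later ages too, without overlap, but the adjusted p was 0.0701 and 0.3. The ratio of Pln to Atp2a2 per kilobase overlapped between genotypes at every age, running from 69.0% to 99.0% in WT and 53.8% to 83.2% in KO at 3 weeks, 56.6% to 87.5% and 78.9% to 93.6% at 6 weeks, and 49.7% to 56.1% and 52.1% to 67.5% at 10 weeks. Ppp1r1a, for protein phosphatase 1 inhibitor 1, was low, at 1.70, 0.661 and 2.28 CPM in WT and 2.10, 6.05 and 3.09 CPM in KO at 3 weeks. These overlapped, and its log2 fold change was 1.29 ± 0.41 (SE), adjusted p = 0.0363. The call was lost without WT replicate 1, WT replicate 2 or KO replicate 2 (adjusted p up to 0.255), and at 6 and 10 weeks its range over both genotypes was 1.099 to 3.16 CPM with no call.

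**Figure D3:**
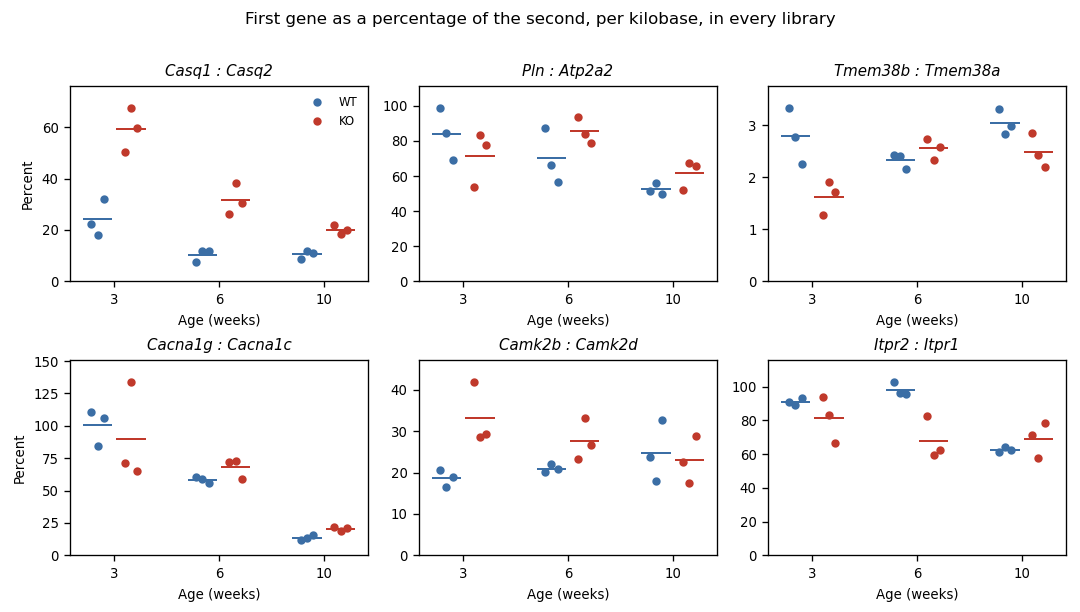
The first gene of each pair as a percentage of the second, per kilobase of deposited gene length, against age in weeks, with a dot for each library and a bar for each group mean of 3. Casq1 relative to Casq2 is separated between WT (blue) and the libraries labelled KO (red) at every age, Pln relative to Atp2a2 overlaps at every age, and Cacna1g relative to Cacna1c is lowest at 10 weeks in both.

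Among the modulators of the ryanodine receptor and pump, S100a1 was called lower at 6 weeks and Fkbp1a higher at 10 weeks in the libraries labelled KO. S100a1 encodes a calcium sensor that binds both proteins. S100a1 stood at 506, 411 and 498 CPM in WT and 444, 415 and 427 CPM in KO at 3 weeks. S100a1 stood at 929, 659 and 728 CPM in WT and 609, 542 and 575 CPM in KO at 6 weeks. S100a1 stood at 507, 563 and 569 CPM in WT and 578, 657 and 662 CPM in KO at 10 weeks. KO lay below WT at 6 weeks and above it at 10 weeks, without overlap at either, and only the 6-week difference was called (-0.42 ± 0.12 SE, adjusted p = 0.0103). It was lost without WT replicate 1 or KO replicate 2 (adjusted p up to 0.11). Fkbp1a encodes FKBP12, which binds ryanodine receptors, and held 161, 162 and 173 CPM in WT and 172, 209.9 and 224 CPM in KO at 10 weeks. KO replicate 1 lay inside the WT range, and the log2 fold change was 0.29 ± 0.10 (SE), adjusted p = 0.0286. That call was lost without WT replicate 1, WT replicate 2, KO replicate 2 or KO replicate 3 (adjusted p up to 0.108). At 3 weeks Fkbp1a ran from 192 to 210.3 CPM in WT and 218 to 243 CPM in KO, and at 6 weeks from 167 to 171 and 175 to 195 CPM. KO lay wholly above WT at both of these ages, with no call at either. Fkbp1b, for FKBP12.6, the form preferred by the cardiac receptor, stood at 0.224 to 1.26 CPM in all 18 libraries, and no difference was detectable at that depth.

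Of the genes of voltage-gated entry, 1 of 5 was called. Cacna1g encodes the T-type channel Cav3.1, known from the developing ventricle and the conduction system. Cacna1g stood at 128, 131 and 175 CPM in WT and 126, 206 and 109 CPM in KO at 3 weeks. Cacna1g stood at 83.003, 103 and 103 CPM in WT and 119, 124 and 95.5 CPM in KO at 6 weeks. Cacna1g stood at 23.7, 29.5 and 24.3 CPM in WT and 40.7, 40.7 and 47.04 CPM in KO at 10 weeks. The genotypes overlapped until 10 weeks, when the libraries labelled KO lay wholly above WT (0.73 ± 0.20 SE, adjusted p = 0.00871). Markers of the conduction system summed to less in KO at each age, 34.3 to 43.5 against 44.3 to 54.03 CPM at 3 weeks, 22.6 to 25.9 against 35.7 to 50.2 CPM at 6 weeks and 19.3 to 32.8 against 49.8 to 78.7 CPM at 10 weeks, and their part in the Cacna1g values was not tested. Of that list, Hcn4 was called lower at each age, Cntn2 at 6 and 10 weeks and Tbx3 at 10 weeks. Shox2 had log2 fold changes of 0.38, 0.66 and 1.09 without a call, and Isl1 held 0 CPM throughout. Relative to Cacna1c per kilobase, Cacna1g stood at 84.4% to 110.3% in WT at 3 weeks, 56.2% to 60.4% at 6 weeks and 11.5% to 15.3% at 10 weeks, and at 18.4% to 21.7% in KO at 10 weeks. Cacna1c, the pore of the cardiac L-type channel, had group means of 304 to 441 CPM and had log2 fold changes of 0.19, 0.00 and 0.12 with no call. Its auxiliary subunit genes Cacnb2 (28.7 to 61.4 CPM) and Cacna2d1 (91.3 to 193 CPM) had no call either. For Cacna2d1 the genotypes did not overlap at 6 weeks (log2 fold change 0.59, adjusted p = 0.0692) or 10 weeks (0.60, 0.0564), and the 6-week difference was called without the 3 Myl4-rich libraries (0.77, adjusted p = 0.0143). Cacna1h, the T-type channel Cav3.2, was the lowest member per kilobase, at 0.402 to 2.18 CPM, and had a log2 fold change of -1.28 at 6 weeks (adjusted p = 0.0518), which was called without the Myl4-rich libraries (-1.51, adjusted p = 0.0156).

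At the surface, the sodium-calcium exchanger gene Slc8a1 was lower in the libraries labelled KO at 6 weeks. NCX1, its product, is the main route by which cardiomyocytes export calcium. Slc8a1 stood at 177, 248 and 227 CPM in WT and 138, 166 and 246 CPM in KO at 3 weeks. Slc8a1 stood at 219, 221 and 205 CPM in WT and 132, 124 and 105 CPM in KO at 6 weeks, with no overlap and a log2 fold change of -0.84 ± 0.21 (SE), adjusted p = 0.0071. Slc8a1 stood at 219, 199.7 and 147 CPM in WT and 258, 251 and 165 CPM in KO at 10 weeks. The genotypes overlapped at 3 and 10 weeks, and the 6-week call held in every fit without 1 library. The deposited model of Slc8a1 was 2934 bases long, against 18807 bases in GENCODE M21, so its count rests on a part of that model. The deposited model was also the shorter one for Atp2b1 (M21 length 2.13 times the deposited), Trdn (2.07), Camk2g (1.73), Ryr2 (1.71), Smdt1 (1.37) and Micu2 (1.34). The gap was smaller for Pln (1.11), Fkbp1b (1.04) and Ppp1r1a (1.01). Atp2b4, a plasma membrane calcium pump, stood at 19.1, 21.3 and 24.96 CPM in WT and 29.4, 35.96 and 39.4 CPM in KO at 3 weeks. KO was wholly above WT (0.68 ± 0.20 SE, adjusted p = 0.0244), and the call was kept only without WT replicate 3 or KO replicate 1 (adjusted p up to 0.122 without any of the other 4). It missed the threshold without the 3 Myl4-rich libraries (0.0941). At 6 weeks Atp2b4 ran from 17.3 to 24.5 CPM in WT and 18.7 to 30.3 CPM in KO, and at 10 weeks from 13.4 to 23.6 and 25.8 to 29.2 CPM (adjusted p = 0.0513). Atp2b1, the related housekeeping pump, had 45.3 to 77.1 CPM and no call, except at 10 weeks without the Myl4-rich libraries (-0.36, adjusted p = 0.0298).

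The 4 calmodulin kinase II genes, whose kinase phosphorylates the ryanodine receptor and phospholamban, did not share a direction. Camk2b was the isoform with the largest difference. Camk2b stood at 13.4, 13.02 and 12.8 CPM in WT and 25.8, 23.8 and 24.97 CPM in KO at 3 weeks. Camk2b stood at 12.8, 13.9 and 12.5 CPM in WT and 19.9, 23.5 and 19.9 CPM in KO at 6 weeks. Camk2b stood at 13.6, 11.1 and 19.3 CPM in WT and 16.6, 15.96 and 19.6 CPM in KO at 10 weeks. The libraries labelled KO lay wholly above WT at 3 and 6 weeks and overlapped it at 10 weeks. Camk2b had a 3-week log2 fold change of 0.93 ± 0.15 (SE), adjusted p = 0.000239, and the 6-week value was 0.69 ± 0.15 (SE), adjusted p = 0.00185. The 10-week value of 0.25 was not called (adjusted p = 0.246). Camk2d, the main cardiac isoform, held 141, 153 and 146 CPM in WT and 182, 225 and 167 CPM in KO at 10 weeks, with KO above WT (0.38 ± 0.13 SE, adjusted p = 0.0283). The call was lost without WT replicate 1, WT replicate 3 or KO replicate 2 (adjusted p up to 0.164). At 3 weeks Camk2d ran from 159 to 195 CPM in WT and 151 to 210.1 CPM in KO, and at 6 weeks from 148 to 157 and 175 to 212 CPM. Camk2a, best known from neurons, held 56.4, 53.9 and 55.1 CPM in WT and 44.99, 43.5 and 38.1 CPM in KO at 6 weeks (-0.38 ± 0.13 SE, adjusted p = 0.0358). At 10 weeks it held 53.95, 52.5 and 50.4 CPM in WT and 36.1, 32.8 and 51.9 CPM in KO, where KO replicate 3 lay inside the WT range (-0.37 ± 0.13 SE, adjusted p = 0.0355). Neither call was stable: the first was lost in all 6 fits without 1 library (0.0515 to 0.151) and the second in 5 of 6, being kept only without KO replicate 3, and both were lost without the 3 Myl4-rich libraries (0.131 and 0.158). Camk2a at 3 weeks ran from 46.9 to 56.1 CPM in WT and 37.5 to 42.1 CPM in KO (adjusted p = 0.0712). Markers of nerve and Schwann cells summed to less in KO, 8.71 to 9.02 against 15.7 to 19.3 CPM at 3 weeks, 4.90 to 6.43 against 15.4 to 19.1 CPM at 6 weeks and 2.66 to 7.30 against 12.3 to 15.01 CPM at 10 weeks, and their part in the Camk2a values was not tested. Camk2g (51.1 to 75.1 CPM) was called at no age, with a log2 fold change of -0.30 at 10 weeks (adjusted p = 0.0549).

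In the mitochondrial uniporter, which lets calcium into the matrix, 1 of 3 genes was called, that of a gatekeeper. Micu2 (ENSMUSG00000021973, chromosome 14, 57916280 to 57999262) encodes a subunit that keeps the pore closed at low calcium. Micu2 stood at 107, 104 and 88.1 CPM in WT and 102, 102 and 107 CPM in KO at 3 weeks, where the genotypes overlapped. Micu2 stood at 130.0, 119.9 and 119 CPM in WT and 165, 153 and 145 CPM in KO at 6 weeks. Micu2 stood at 101, 112 and 95.4 CPM in WT and 156, 195 and 170.3 CPM in KO at 10 weeks. From 6 weeks every library labelled KO exceeded every WT library of its age. From a log2 fold change of 0.06 without a call at 3 weeks (adjusted p = 0.758), the 6-week value was 0.33 ± 0.10 (SE), adjusted p = 0.0239, and the 10-week value was 0.76 ± 0.10 (SE), adjusted p = 1.05e-05. The 6-week call was lost without WT replicate 2, WT replicate 3, KO replicate 1 or KO replicate 2 (adjusted p up to 0.1), and the 10-week call held in all 6 fits. Mcu, the pore, stood at 15.2 to 21.1 CPM over the 18 libraries with log2 fold changes of -0.24, 0.06 and -0.001, and Smdt1, for the essential regulator EMRE, at 128 to 232 CPM with 0.18, -0.22 and 0.00. None of these 6 differences was called. Mitochondrially encoded genes took the smaller share of counts in KO at all 3 ages, and leaving them out removed 1 of the 31 member calls.

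Of the 4 genes of store-operated entry and of inositol trisphosphate receptors, 1 was called, at 1 age. Stim1, the calcium sensor of the SR, held 15.5 to 24.9 CPM and Orai1, the surface pore it opens, 11.3 to 19.1 CPM, with no call at any age. Itpr1 held 34.2 to 49.1 CPM and no call. Itpr2, the receptor isoform best known from cardiomyocytes, stood at 32.4, 32.98 and 31.8 CPM in WT and 25.5, 22.4 and 23.3 CPM in KO at 6 weeks. There the libraries labelled KO lay wholly below WT (-0.45 ± 0.12 SE, adjusted p = 0.0107), a call that was lost without KO replicate 2 (adjusted p = 0.0531). At 3 weeks Itpr2 ran from 30.7 to 31.6 CPM in WT and 26.5 to 28.6 CPM in KO, and at 10 weeks from 17.3 to 22.6 and 18.2 to 26.9 CPM, with no call.

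Whether a genotype difference itself changed with age was tested by comparing the effects between ages. Between 6 and 10 weeks 4 members were called, all shifting towards higher values in the libraries labelled KO, 11.1% of the members against 5.75% of all genes tested (3.12% towards higher and 2.63% towards lower values). They were Casq2 (0.79 ± 0.16 SE, adjusted p = 0.00661), Asph (0.73 ± 0.16 SE, adjusted p = 0.0104), S100a1 (0.63 ± 0.16 SE, adjusted p = 0.0267) and Slc8a1 (1.09 ± 0.29 SE, adjusted p = 0.0394). Casq2 and Asph held in all 12 fits without 1 library. S100a1 was lost in 5 of 12, those without WT replicate 1 or KO replicates 2 or 3 of 6 weeks, or without WT replicate 1 or KO replicate 2 of 10 weeks (adjusted p up to 0.0847). Slc8a1 was kept in only 2 of 12, those without WT replicate 1 or KO replicate 3 of 10 weeks (up to 0.0938 in the others), and was lost without the 3 Myl4-rich libraries (0.0534). Without the Myl4-rich libraries Trdn (-1.16, adjusted p = 0.0174) and Atp2b1 (-0.61, adjusted p = 0.0387) were called, both towards lower values. The count of 4 became 2 without WT replicate 1, KO replicate 2 or KO replicate 3 of 6 weeks. Between 3 and 10 weeks 1 member was called, Micu2 (0.70 ± 0.15 SE, adjusted p = 0.00619), 2.78% of the members against 5.76% of all genes (2.82% higher, 2.94% lower), and it held in all 12 fits. That count became 2 without WT replicate 2 of 10 weeks, 2 without KO replicate 2 of 3 weeks and 4 without KO replicate 3 of 10 weeks. Between 3 and 6 weeks edgeR called 0 of 36, against 1.59% of all genes (0.494% higher, 1.1% lower), with 7 members at an unadjusted p under 0.05, and DESeq2 called 2. Without WT replicate 3 of 3 weeks edgeR called 2 and without KO replicate 2 of 3 weeks 3.

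With age, the libraries labelled WT and KO each had members that changed. From 3 to 6 weeks in WT, 3 members changed, 8.33% against 5.18% of all genes (2.94% higher, 2.24% lower). Casq1 fell by 1.15 on the log2 scale, while Hrc rose by 0.52 and S100a1 by 0.71. The Hrc call was lost without WT replicates 1 or 2 of 3 weeks or WT replicates 1 or 3 of 6 weeks (adjusted p up to 0.105). Cacna1g was called lower at 6 weeks without the Myl4-rich libraries (-0.60, adjusted p = 0.0324). In KO over the same interval 6 members changed, 16.7% against 11.6% of all genes (5.34% higher, 6.25% lower). Casq1 fell by 1.17, Srl by 0.37 and Fkbp1a by 0.31, and Micu2 rose by 0.57, S100a1 by 0.42 and Tmem38b by 0.38. Only the Casq1 and Micu2 calls held in every fit without 1 library, and the count became 3 without KO replicate 3 of 3 weeks, 2 without KO replicate 1 of 6 weeks and 2 without KO replicate 3 of 6 weeks. Without the Myl4-rich libraries Srl, Fkbp1a, S100a1 and Tmem38b were lost (adjusted p = 0.0887 to 0.126).

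From 6 to 10 weeks in WT 6 members changed, 16.7% against 8.77% of all genes (3.64% higher, 5.12% lower). Cacna1g fell by 1.90 ± 0.20 (SE, adjusted p = 6.47e-06), Itpr2 by 0.66, Casq2 by 0.54, S100a1 by 0.50 and Asph by 0.38, and Tmem38b rose by 0.37. The count was 2 without WT replicate 1 of 6 weeks and 3 without WT replicate 1 of 10 weeks, and Asph was lost in each of the 6 fits without 1 library (0.0526 to 0.19). In KO 9 members changed, 25.0% against 12.7% of all genes (6.52% higher, 6.14% lower). Slc8a1 rose by 0.90, Jph2 by 0.49, Ryr2 by 0.48, Hrc by 0.46, Atp2a2 by 0.44, Tmem38a by 0.39, Asph by 0.35 and Tmem38b by 0.34, and Cacna1g fell by 1.39. Of the 8 that rose, Atp2a2, Hrc, Tmem38a, Tmem38b and Slc8a1 were also among the genes called lower at 6 weeks between genotypes. The count was 5 without KO replicate 1 and 4 without KO replicate 3 of 6 weeks. Without the 3 Myl4-rich libraries Ryr2 (adjusted p = 0.194), Atp2a2 (0.106), Hrc (0.0652), Asph (0.217) and Tmem38b (0.141) were lost and Trdn was called (-1.16, adjusted p = 0.00277), which left Slc8a1 and Tmem38a of the 5 genes just named. These intervals share the 6-week KO libraries with the genotype comparison at 6 weeks, so low values in those libraries enter both.

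Beyond the members, 65 of 71 other genes of the calcium pathways could be tested. At 3 weeks 11 were called higher and 2 lower in the libraries labelled KO, at 6 weeks 10 and 9, and at 10 weeks 13 and 10, which are 20.0%, 29.2% and 35.4% of those tested, against 15.3%, 23.8% and 29.3% of all genes. Their median log2 fold change was -0.01, 0.12 and 0.16, against 0.00, 0.00 and -0.03 for all genes. Genes among those with the smallest p in each direction are described here. Apart from Cacna1s, they are given mainly at the ages of that rank, and several also lay apart between genotypes at other ages. Cacna1s encodes the pore of the L-type channel of skeletal muscle. Cacna1s stood at 1.94, 2.17 and 2.66 CPM in WT and 4.29, 2.35 and 3.37 CPM in KO at 3 weeks. Cacna1s stood at 4.07, 3.38 and 4.09 CPM in WT and 10.1, 10.8 and 11.96 CPM in KO at 6 weeks (1.51 ± 0.18 SE, adjusted p = 2.05e-06). Cacna1s stood at 5.62, 6.05 and 5.93 CPM in WT and 29.96, 34.5 and 34.96 CPM in KO at 10 weeks (2.497 ± 0.17 SE, adjusted p = 9.15e-10). The groups were apart at the later ages and overlapped at 3 weeks (0.58, adjusted p = 0.0506). Cacnb1, a beta subunit found in the skeletal muscle channel, was higher at 3 weeks with 10.2, 11.2 and 14.4 CPM in WT and 19.2, 24.5 and 24.2 CPM in KO (0.93 ± 0.20 SE, adjusted p = 0.00264). At 6 weeks Cacnb1 ran from 17.2 to 21.5 CPM in WT and 29.4 to 35.1 CPM in KO, and at 10 weeks the genotypes overlapped. Sypl2, for mitsugumin 29 of the skeletal muscle triad, held 0.605, 0.769 and 0.420 CPM in WT and 6.34, 4.42 and 4.93 CPM in KO at 6 weeks (3.10 ± 0.58 SE, adjusted p = 0.000696). Its range was 0.243 to 1.14 CPM in WT and 1.27 to 5.55 CPM in KO at 3 weeks. At 10 weeks it was 0.407 to 0.504 CPM in WT and 2.45 to 7.51 CPM in KO. The skeletal muscle markers summed to 2.14 to 6.59 CPM, as given for Casq1, and their part in these values was not tested.

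Strit1, a small peptide (DWORF) that displaces phospholamban from SERCA, was lower at 6 weeks. It held 149.8, 57.9 and 93.8 CPM in WT and 20.1, 24.5 and 17.9 CPM in KO, with no overlap and a wide WT spread (-2.27 ± 0.29 SE, adjusted p = 3.83e-05). At 10 weeks Strit1 ran from 48.8 to 56.6 CPM in WT and 25.8 to 32.7 CPM in KO, and at 3 weeks the genotypes overlapped. Bsg, for basigin, a partner of plasma membrane calcium pumps, held 1325, 1174 and 1274 CPM in WT and 698, 735 and 802 CPM in KO at 6 weeks (-0.75 ± 0.11 SE, adjusted p = 3.83e-05) and 1184, 1258 and 1573 CPM in WT and 757, 848 and 883 CPM in KO at 10 weeks (-0.69 ± 0.11 SE, adjusted p = 8.22e-05). Both sets were apart. Calm3, 1 of the calmodulin genes, held 257, 291 and 319 CPM in WT and 395, 427 and 388 CPM in KO at 3 weeks (0.48 ± 0.09 SE, adjusted p = 0.00113). Micu3, a further uniporter gatekeeper, held 7.77, 7.36 and 4.75 CPM in WT and 2.71, 4.09 and 4.40 CPM in KO at 3 weeks (-0.84 ± 0.23 SE, adjusted p = 0.0171), a call lost without WT replicate 1, WT replicate 2 or KO replicate 1 (adjusted p up to 0.1). Cmya5, for myospryn at the junctions of SR and surface, held 769, 851 and 718 CPM in WT and 1396, 1236 and 1304 CPM in KO at 10 weeks (0.75 ± 0.11 SE, adjusted p = 3.55e-05). Mcur1, a regulator of the uniporter, held 68.4, 78.3 and 86.99 CPM in WT and 43.01, 49.1 and 58.2 CPM in KO at that age (-0.63 ± 0.12 SE, adjusted p = 0.00041). KO was the higher group for Cmya5 and Calm3 and the lower for Micu3 and Mcur1, without overlap in any of these 4.

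**Figure D4:**
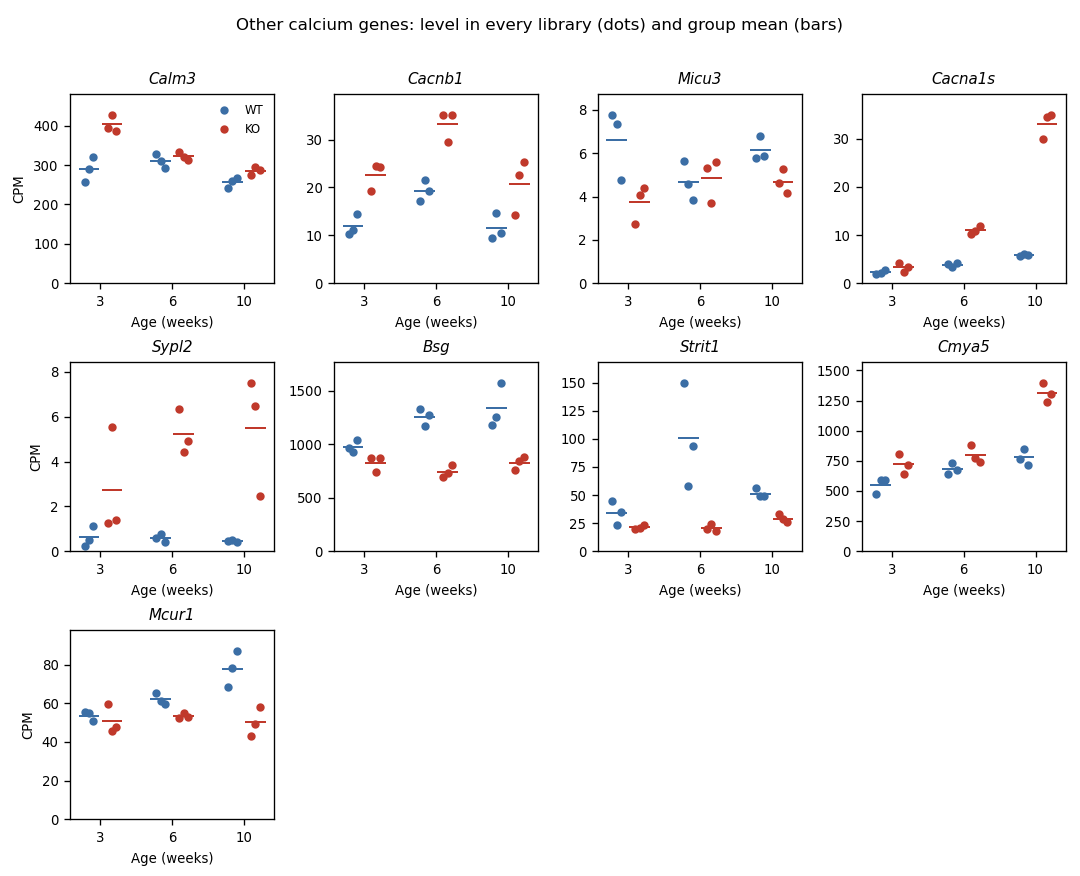
CPM of 9 other calcium genes named in the text (1 panel each) against age in weeks, with a dot for each library and a bar for each group mean of 3, WT in blue and the libraries labelled KO in red, on linear axes from 0. Cacna1s reaches 29.96 to 34.96 CPM in red at 10 weeks, against 5.62 to 6.05 CPM in WT, and Strit1 stays between 17.9 and 32.7 CPM in red.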

How the data were processed

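RNA of frozen tissue was purified on Qiagen RNeasy columns and made into NEBNext Ultra II libraries, per the labels' protocols. STAR 2.5.2b, Subread 1.5.2 with featureCounts, Trimmomatic 0.36 and the build GRCm38 appear in the submitters' processing notes. How strand and multimapping reads were handled is not given in the sources used here. Raw counts per Ensembl gene with gene lengths, without normalization, were deposited by the authors for 49315 genes in 18 libraries of 14980968 to 23001047 counts. Identifiers were matched to symbols through GENCODE M21 (48970 matched), and Strit1 through a RefSeq synonym.

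From these counts, R 4.3.3 with edgeR 4.0.16 was used: filterByExpr (minimum count 10, minimum total 15; 15778 genes, all 36 members among them), TMM scaling and 1 robust quasi-likelihood fit of 6 group means. Benjamini-Hochberg adjustment ran over all genes tested, a gene was called under 0.05, and the SE was the log2 fold change over the root of its F statistic. Ratios and levels between genes were taken per kilobase of deposited length and not tested. No replicate pair was a copy (chi-squared per degree of freedom 7.04 to 64.1). The steps were tested on simulated counts. Alternatives were DESeq2 1.42.0 (Wald test and size factors), limma 3.58.1 voom, no low-count filter, only the groups compared, a replicate block, no mitochondrially encoded genes, no libraries with Myl4 above 50 CPM, and each library left out in turn.

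The members, the gene lists and the comparisons were chosen with earlier results of these data known. Members called in a genotype comparison are described by library and the others by range. Of the other pathway genes, up to 2 called per direction and age are named, smallest p first, and 1 of these is not reported here.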

Additional observations from a re-analysis of the deposited data

Results flagged for a closer look

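For 5 members the genotype effect itself differed between ages in edgeR's test. Between 6 and 10 weeks the log2 fold change of KO against WT rose by 0.79 for Casq2, by 0.73 for Asph, by 0.63 for S100a1 and by 1.09 for Slc8a1. Between 3 and 10 weeks it rose by 0.70 for Micu2. For Casq2 the effect passed from -0.33 to 0.46, and for S100a1 from -0.42 to 0.21, the later value without a call. Casq2, Asph and Micu2 held in all 12 fits without 1 library, S100a1 in 7 and Slc8a1 in 2. In WT from 6 to 10 weeks Casq2, Asph and S100a1 fell by 0.54, 0.38 and 0.50, while in KO Slc8a1 rose by 0.90 and Asph by 0.35. Groups of 3 libraries were too small for a further search for single outlying libraries, beyond the 3 Myl4-rich ones set apart above.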

How the results depend on the processing

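No member call between genotypes changed direction under any alternative. Of the 31 calls, DESeq2's Wald test kept 31, limma voom 30, the fit without mitochondrially encoded genes 30, DESeq2 size factors 29, the unfiltered fit 27, the fit of only the groups compared 27 and the fit without the 3 Myl4-rich libraries 25. In the same order these fits newly called 5, 2, 2, 3, 9, 4 and 4 differences. Using only the groups compared gave 5 members higher at 6 weeks and 1 lower at 10 weeks. Without the filter, 5 were lower at 10 weeks, 3 changed in the genotype effect between 6 and 3 weeks, 3 between 10 and 3 weeks, and 5 in WT from 3 to 6 weeks. DESeq2's Wald test gave 2, 2 and 5 for the same 3 comparisons and 8 between 10 and 6 weeks. Without the Myl4-rich libraries, 2 changed in KO from 3 to 6 weeks and 5 from 6 to 10 weeks. The cause was not tested.

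Leaving out 1 library gave 4 to 6, 2 to 4 and 6 to 9 members higher and 2 to 2, 4 to 7 and 0 to 3 lower at 3, 6 and 10 weeks. It gave 0 to 3, 2 to 6 and 1 to 4 for the genotype effects at 6 against 3, 10 against 6 and 10 against 3 weeks, 2 to 4 and 2 to 5 in WT from 3 to 6 and 6 to 10 weeks, and 2 to 5 and 4 to 12 in KO. Replicate numbers showed no clear pairing of the samples. Deviations of same-numbered libraries correlated across genes at -0.22 to 0.11 (median 0.008), and those of differently numbered ones at -0.17 to 0.28 (median -0.006). Of 18 libraries, 8 were closest to their own number. This check cannot exclude a weak pairing. The replicate block kept 29 of the 31 calls and added 3, with 5, 4 and 9 members higher and 2, 8 and 4 lower at 3, 6 and 10 weeks. Depth limited Fkbp1b, Cacna1h and Ppp1r1a.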

Other observations

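The following genes of the calcium pathways were chosen after their values were seen. Ryr3, a ryanodine receptor isoform of low abundance in heart, held 0.744, 1.74 and 0.842 CPM in the libraries labelled KO at 3 weeks, 11.3, 5.27 and 7.37 CPM at 6 weeks and 21.8, 52.8 and 11.7 CPM at 10 weeks. In WT it stayed between 0.680 and 2.52 CPM at all ages. The log2 fold change was 2.09 ± 0.54 (SE) at 6 weeks (edgeR, adjusted p = 0.0106, lost without WT replicate 3 or KO replicate 1, up to 0.0518) and 3.74 ± 0.54 at 10 weeks (0.000108), where KO lay above WT in 3 of 3 libraries. Slc8a2, a sodium-calcium exchanger isoform best known from brain, was called higher at all 3 ages, with 2.53 to 3.88 CPM in KO and 1.06 to 2.47 CPM in WT. The calls at 6 and 10 weeks were each lost in 3 of 6 fits without 1 library: without WT replicates 1 or 2 or KO replicate 2 at 6 weeks (adjusted p up to 0.12) and without WT replicates 2 or 3 or KO replicate 3 at 10 weeks (up to 0.106). Sln, for sarcolipin, the SERCA inhibitor of the atrium, held 56.6, 190.3 and 506 CPM in the 3 Myl4-rich libraries and at most 5.66 CPM in the other 15.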
